A study of Mus musculus with 4 samples.

Results

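Transcripts of 10 inflammatory cytokines and chemokines, namely Tnf, Il1a, Il1b, Il6, Cxcl1, Cxcl2, Cxcl10, Ccl3, Ccl4 and Tgfb1, were measured in mouse LSK cells (Lineage-, c-Kit+, Sca-1+), a population sorted from bone marrow that contains the blood stem cells and early multipotent progenitors. The genes were taken by name: every array probe carrying 1 of these gene names was kept, whatever its signal, which gave 10 of the 34650 names in the arrays' gene name column and 11 of 55681 probes. Cxcl10 had 2 probes and each other gene had 1. The cells came from lethally irradiated recipients of E14.5 fetal liver cells on the C57B6 background. The donors were double mutant (TET2 knock down together with the JAK2V617F transgene; recipients studied at 13 weeks after transplantation), JAK2V617F transgenic (16 weeks), TET2 knock down (TET2KD, 10 weeks) or wild type (WT, 16 weeks). The series lists 5 mice per genotype but holds 1 array per genotype, so genotype and array cannot be told apart, nor can the week after transplantation in any comparison other than JAK2V617F over WT, which were both at 16 weeks. The promoter that drives the transgene, the way TET2 was knocked down and any pooling of mice are not given in the sources used here. With 1 array per group no difference below has a replicate check or a p-value, and every error given is the spread of repeated spots of a probe within an array, which is technical.

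Tnf and the interleukin-1 cytokines are early signals of inflammation made mainly by myeloid cells, and they induce one another, Il6 and the chemokines through NF-kB. Cxcl1 and Cxcl2 attract neutrophils through Cxcr2, Cxcl10 is an interferon-induced ligand of Cxcr3 on T and NK cells, and Ccl3 and Ccl4 attract monocytes and T cells. Tgfb1 is secreted in a latent form, restrains the cell cycle of hematopoietic stem cells and is active in marrow fibrosis.

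The 250 bases before the transcription start of Cxcl1, Cxcl2 and Cxcl10 are shown. They were picked because these 3 chemokine genes lie on chromosome 5 and were at least 2-fold higher than WT on both arrays with JAK2V617F. Cxcl2 was also 4.47-fold higher in TET2KD than in WT cells. The choice followed from the values, so the matches are no test of them. The sequences are those of RefSeq, build GRCm38.p6, at chr5:90890995-90891244 (plus strand), chr5:90903649-90903898 (plus strand) and chr5:92348890-92349139 (minus strand). They are written 5′ to 3′, and capitals mark matches to the NF-kB motif on either strand.
Cxcl1: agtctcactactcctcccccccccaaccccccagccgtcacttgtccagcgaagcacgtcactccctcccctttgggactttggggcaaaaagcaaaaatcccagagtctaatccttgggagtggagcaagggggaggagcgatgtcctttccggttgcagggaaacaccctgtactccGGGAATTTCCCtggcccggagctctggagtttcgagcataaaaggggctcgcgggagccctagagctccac
Cxcl2: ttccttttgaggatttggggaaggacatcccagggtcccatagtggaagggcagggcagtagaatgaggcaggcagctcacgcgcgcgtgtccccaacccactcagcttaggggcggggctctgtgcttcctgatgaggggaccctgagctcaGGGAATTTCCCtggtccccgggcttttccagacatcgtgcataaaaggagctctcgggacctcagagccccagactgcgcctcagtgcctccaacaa
Cxcl10: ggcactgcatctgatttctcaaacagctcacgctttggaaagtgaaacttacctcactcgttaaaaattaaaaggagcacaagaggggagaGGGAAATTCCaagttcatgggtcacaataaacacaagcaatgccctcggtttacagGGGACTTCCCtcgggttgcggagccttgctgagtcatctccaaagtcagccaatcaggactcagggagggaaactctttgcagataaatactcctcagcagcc

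Promoter sequence was at hand for 9 of the 10 genes, all but Ccl4. The NF-kB motif was found in 4 of the 9 windows, those of Il6, Cxcl1, Cxcl2 and Cxcl10, against 3.9% of 32851 mouse promoter windows of the same length. Cxcl1 and Cxcl2 carried the same 11-base stretch, which reads as a match on both strands, and Cxcl10 carried 2 separate stretches that begin 159 and 103 bases before the start. The AP-1 motif TGANTCA, searched on both strands, was found in the windows of Il1a, Il6 and Cxcl10, against 6.75% of all windows, and the STAT motif TTCNNNGAA in none of the 9, against 7.02%. A match describes letters only, and no match says only that these letters are not in this window.

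Signals are given as scaled signal, on which 100 is the 75th percentile of all probes of an array, and they compare 1 probe between arrays, never 1 probe with another. A probe with more than 50% of its spots marked well above background by the scanner software was taken as measured. Of the 11 probes, 6 were measured on all 4 arrays, 4 on some and 1 on none. Across the arrays 49.31% to 54.43% of all probes were measured and no spot was saturated. The 75th percentile of the background-subtracted signal before scaling lay between 120.6 and 141.8. Where a probe was measured on 1 array of a pair only, the other array was set to its lowest measured signal. Where the probe's own signal on that other array was higher, that signal was kept. In both cases the difference is given as "at least". Of 3 Tet2 probes, 2 were measured on all arrays, with scaled signals of 260 and 136 in double mutant, 446 and 165 in JAK2V617F, 233 and 60.5 in TET2KD and 418 and 223 in WT cells. The other Tet2 probe had 29.7 in double mutant cells and was not well above background in JAK2V617F (6.38), TET2KD (15.3) or WT cells (7.73), so that 2 of the 3 probes were lower and 1 higher in double mutant than in WT cells.

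**Figure D1:**
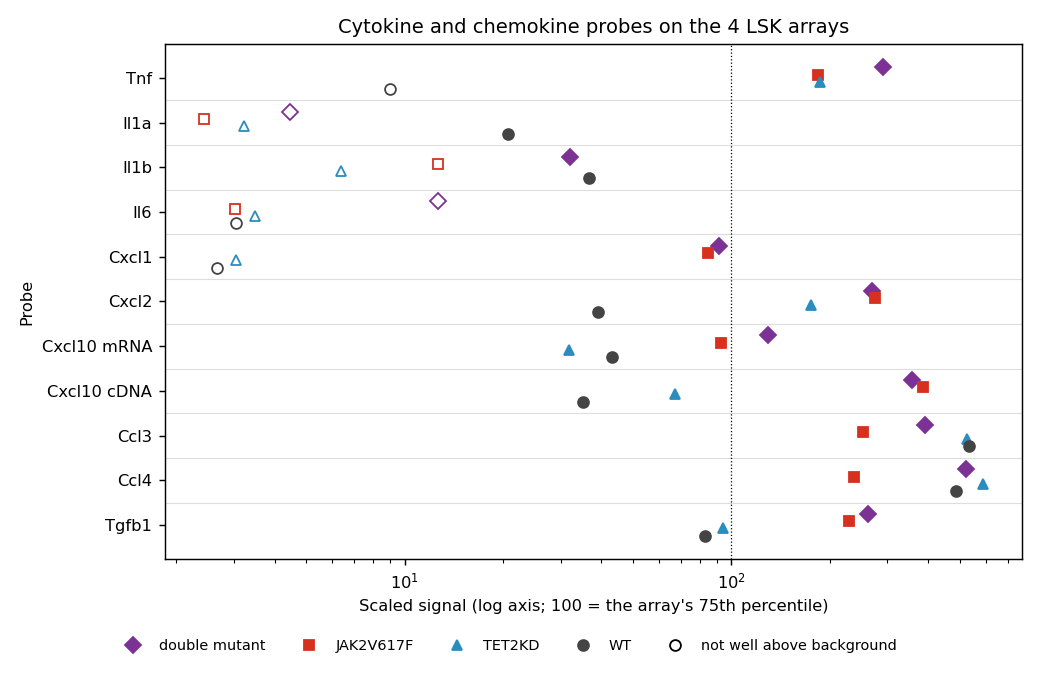
Scaled signal (log axis, 100 is the 75th percentile of an array) of the 11 probes in double mutant, JAK2V617F, TET2KD and WT cells. Each point is 1 array, and open points were not well above background; Tnf is open in WT cells only, and Cxcl1 is open in TET2KD and WT cells.

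Against WT, 6 of 10 compared member probes were at least 2-fold higher in double mutant cells and 0 were at least 2-fold lower, where 16.6% of 33503 probes were at least 2-fold higher and 16.5% at least 2-fold lower. In JAK2V617F cells 6 of 10 were higher and 3 lower, against 16.4% and 16.1% of 33666 probes. In TET2KD cells 2 of 9 were higher and 1 lower, against 17.3% and 17.2% of 32193 probes. The median log2 difference of the compared member probes was 1.62 in double mutant, 1.29 in JAK2V617F and 0.19 in TET2KD cells, and that of all probes was 0.01, 0.01 and -0.03 in the same order. With both arrays of a pair measured, 4 of 7 were higher and 0 lower in double mutant cells (12.8% and 13.5% of 25101 probes), 4 and 2 of 6 in JAK2V617F cells (13.0% and 13.2% of 25225) and 1 and 0 of 6 in TET2KD cells (13.5% and 13.8% of 23847). The 3 comparisons use the same WT array. Tnf and Cxcl2 were higher in all 3 mutants, Cxcl1, Cxcl10 and Tgfb1 in the 2 that carry JAK2V617F, Ccl3 and Ccl4 were lower in JAK2V617F cells, and Il1b was lower in JAK2V617F and TET2KD cells.

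Tnf, the cytokine that opens many inflammatory responses, had a scaled signal of 290.1 in double mutant cells, 184 in JAK2V617F cells, 186 in TET2KD cells and 9.01 in WT cells. Its 10 spots, at chr17:35336795-35336854 (mm9, minus strand), ran from 275 to 323 on the double mutant array, from 163 to 214 on the JAK2V617F array, from 149 to 209 on the TET2KD array and from 3.25 to 19.8 on the WT array. The spots of no mutant array overlapped those of WT, where 2 of 10 were well above background. Tnf was at least 23.3-fold higher in double mutant, at least 14.8-fold higher in JAK2V617F and at least 15.0-fold higher in TET2KD cells than in WT cells. With the normexp background correction the log2 differences were 2.47, 1.92 and 1.9 in place of 4.54, 3.89 and 3.90, all still past 2-fold. Of all compared probes, 0.107%, 0.428% and 0.686% were as high or higher in the same 3 comparisons. In a sorted fraction a larger share of cells that make a transcript and more transcript per cell cannot be told apart, for Tnf and for each gene below.

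**Figure D2:**
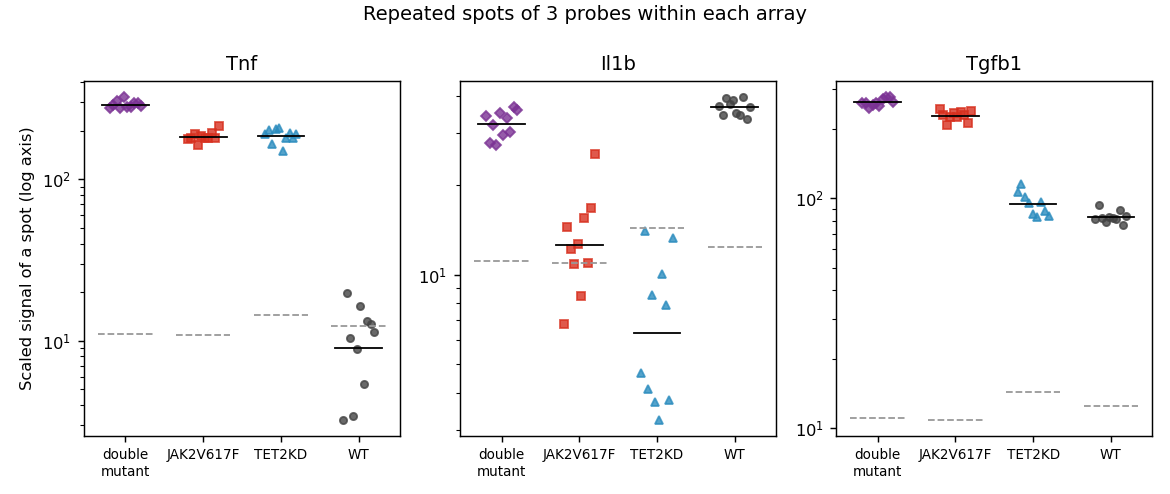
Scaled signal (log axis) of every spot not left out as an outlier, for the 3 probes with 10 spots per array, Tnf, Il1b and Tgfb1, in double mutant, JAK2V617F, TET2KD and WT cells. The Tnf spots of the WT array lie between 3.25 and 19.8, below all spots of the mutant arrays, and the Il1b spots of double mutant and WT cells overlap.

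Il1b, the secreted interleukin-1 that is cut to its active form by caspase-1, had a scaled signal of 32.1 in double mutant cells, 12.6 in JAK2V617F cells, 6.37 in TET2KD cells and 36.6 in WT cells. The double mutant spots (27.3 to 36.8) overlapped the WT spots (33.5 to 39.7), and both lay above all JAK2V617F spots (6.79 to 25.5) and all TET2KD spots (3.24 to 14.0). The probe, at chr2:129190347-129190406 (mm9, minus strand), was well above background in 5 of 10 spots in JAK2V617F cells and in 0 of 10 in TET2KD cells. Il1b was thus at least 2.90-fold lower in JAK2V617F and at least 2.55-fold lower in TET2KD cells than in WT cells, while double mutant cells differed from WT by -0.19 ± 0.18 on the log2 scale (± is the SD expected from repeated spots, here and below). With normexp the JAK2V617F and TET2KD differences were -0.47 and -0.42 (log2), under the 2-fold mark. Il1a, the cell-associated interleukin-1 encoded 64.4 kb away, had a scaled signal of 4.44 in double mutant, 2.43 in JAK2V617F, 3.23 in TET2KD and 20.7 in WT cells. Only the WT array measured it, so that Il1a was at least 1.86-fold lower in double mutant, at least 1.89-fold lower in JAK2V617F and at least 1.44-fold lower in TET2KD cells.

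Il6, an interleukin that drives Stat3 signalling, gave no comparison. Its 2 spots averaged 12.6 in double mutant cells, 3.02 in JAK2V617F cells, 3.49 in TET2KD cells and 3.04 in WT cells, and 1 spot in all, on the double mutant array, was well above background.

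Cxcl1 and Cxcl2, neighbouring genes whose probes lie 12.7 kb apart, were both high on the 2 arrays with JAK2V617F. Cxcl1 (chr5:91321845-91321904, mm9, plus strand) had a scaled signal of 91.7 in double mutant, 85.0 in JAK2V617F, 3.06 in TET2KD and 2.67 in WT cells. It was at least 7.37-fold higher in double mutant and at least 6.84-fold higher in JAK2V617F cells than in WT cells, and it was not measured in TET2KD or WT cells. Cxcl2 (chr5:91334534-91334593, mm9, plus strand) had a scaled signal of 269 in double mutant, 274 in JAK2V617F, 175 in TET2KD and 39.1 in WT cells. It was measured on every array and was 6.89-fold higher in double mutant, 7.03-fold higher in JAK2V617F and 4.47-fold higher in TET2KD cells than in WT cells. Cxcl2 was therefore high in TET2KD cells without a measured Cxcl1 signal there. Double mutant and JAK2V617F cells differed by 0.11 ± 0.25 (log2) in Cxcl1 and by -0.03 ± 0.13 in Cxcl2, within the spot error.

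The 2 Cxcl10 probes lie 835 bases apart on the minus strand and did not give the same picture in TET2KD cells. The probe designed on the Cxcl10 mRNA (chr5:92775781-92775840, mm9) had a scaled signal of 129 in double mutant, 92.9 in JAK2V617F, 31.7 in TET2KD and 43.1 in WT cells. That is 2.99-fold higher in double mutant, 2.16-fold higher in JAK2V617F and 1.36-fold lower in TET2KD cells than in WT cells, and with normexp the double mutant and JAK2V617F differences were 0.87 and 0.58 (log2), under the 2-fold mark. The other probe, designed on a spleen cDNA that the array annotation calls unclassifiable (chr5:92776616-92776675, mm9), had 358 in double mutant, 387 in JAK2V617F, 67.4 in TET2KD and 35.1 in WT cells. On it the signal was 10.2-fold higher in double mutant, 11.0-fold higher in JAK2V617F and 1.92-fold higher in TET2KD cells. Both probes placed the 2 arrays with JAK2V617F above the 2 without it, and the TET2KD difference from WT had opposite signs on them (-0.44 ± 0.26 and 0.94 ± 0.26).

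Tgfb1, the latent growth factor, followed the same split. Its probe is shown with its 60 bases because it is the member with 10 spots that was measured on all 4 arrays, and it lies at chr7:26489877-26489936 (mm9, plus strand).
Tgfb1 probe: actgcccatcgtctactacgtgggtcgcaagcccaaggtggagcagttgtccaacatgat
The scaled signal was 262 in double mutant cells (spots 247 to 276), 229 in JAK2V617F cells (209 to 245), 94.5 in TET2KD cells (83.2 to 115) and 83.0 in WT cells (76.4 to 93.1). No spot of the 2 arrays with JAK2V617F overlapped a spot of the 2 without it, whereas the TET2KD and WT spots overlapped, and 1 of the TET2KD spots was left out as an outlier. Tgfb1 was 3.15-fold higher in double mutant and 2.76-fold higher in JAK2V617F cells than in WT cells, and TET2KD differed from WT by 0.19 ± 0.18 (log2).

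Ccl3 and Ccl4, monocyte and T cell attractants whose probes lie 16.7 kb apart on chromosome 11, were lowest in JAK2V617F cells. Ccl3 (chr11:83461358-83461417, mm9, minus strand) had a scaled signal of 391 in double mutant, 252 in JAK2V617F, 526 in TET2KD and 535 in WT cells. Ccl4 (chr11:83478052-83478111, mm9, plus strand) had 522 in double mutant, 237 in JAK2V617F, 591 in TET2KD and 487 in WT cells. In JAK2V617F against WT cells Ccl3 was 2.12-fold lower and Ccl4 2.06-fold lower, just past the 2-fold mark, and with another background correction (normexp) both were under it, at -0.93 and -0.87 (log2). TET2KD cells lay near WT for both genes, at -0.02 ± 0.1 for Ccl3 and 0.28 ± 0.1 for Ccl4. Double mutant cells lay below WT for Ccl3, at -0.45 (log2), and near WT for Ccl4, at 0.10.

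**Figure D3:**
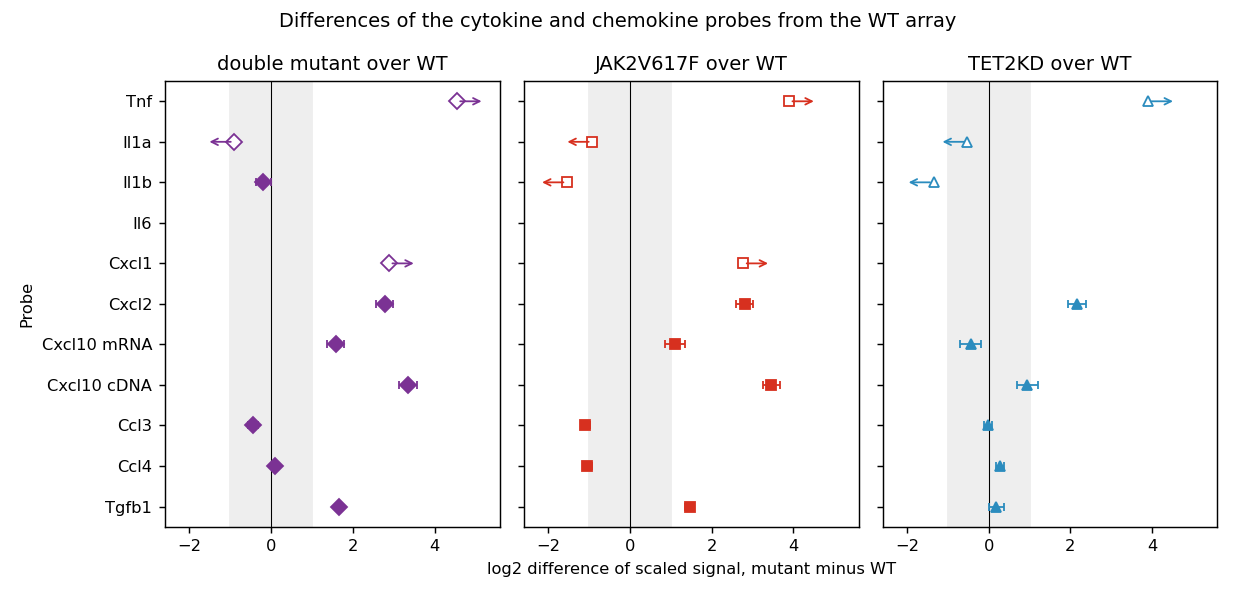
Log2 difference of scaled signal for each compared member probe in double mutant, JAK2V617F and TET2KD over WT. Arrows mark bounds and bars the SD expected from repeated spots; Tnf is at 4.54, 3.89 and 3.90 over WT, and Il1b is negative over WT in all 3 mutants.

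The double mutant array was also set against each single mutant. Over TET2KD, 5 of 9 compared member probes were at least 2-fold higher and 0 lower, against 16.1% and 16.3% of 32918 probes. Cxcl1 was at least 6.38-fold higher, the 2 Cxcl10 probes were 5.31-fold and 4.06-fold higher, Tgfb1 was 2.77-fold higher and Il1b at least 2.24-fold higher in double mutant than in TET2KD cells, the last at 0.3 (log2) with normexp. Tnf (0.64 ± 0.17, log2) and Cxcl2 (0.62 ± 0.13) were higher by less than 2-fold, and Ccl3 and Ccl4 were at -0.43 and -0.18. With both arrays measured, 3 of 7 were higher and 0 lower, against 12.8% and 13.2% of 24550 probes. Over JAK2V617F, 2 of 9 were at least 2-fold higher and 0 lower, against 13.4% and 13.7% of 33977 probes. These were Il1b, at least 2.55-fold higher, and Ccl4, 2.21-fold higher in double mutant than in JAK2V617F cells, and with normexp they were under 2-fold at 0.35 and 0.99 (log2). With both arrays measured, 1 of 8 was higher and 0 lower, against 10.3% and 10.6% of 26342 probes. Ccl3 was 1.55-fold and Tnf 1.58-fold higher, and Cxcl1, Cxcl2, Tgfb1 and the cDNA probe of Cxcl10 differed by at most 0.19 in size (log2).

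**Figure D4:**
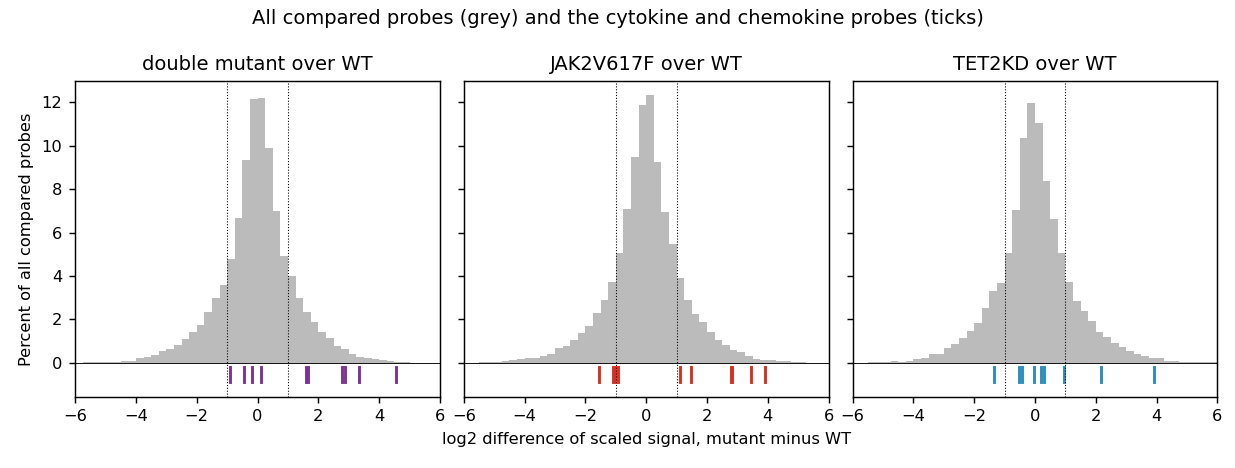
Share of all compared probes (percent) in bins of the log2 difference, for double mutant, JAK2V617F and TET2KD over WT. The member probes are marked on the same axis. Most member probes of double mutant and JAK2V617F over WT lie to the right of the bulk of probes.

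For the 6 probes measured on all arrays, the double mutant level was set against the level that the 2 single-mutant differences would give when added on the log2 scale. Cxcl2 lay 2.19 below that sum (spot SD 0.24) and the cDNA probe of Cxcl10 1.05 below it, and double mutant cells held no more Cxcl2 signal than JAK2V617F cells although TET2KD cells stood 2.16 above WT. With normexp these departures were -1.39 and -0.56, so that the Cxcl10 one no longer reached 1. Tgfb1 matched the sum (0.00), and Ccl3, Ccl4 and the mRNA probe of Cxcl10 lay above it by 0.66, 0.86 and 0.91. Departures of at least 1 were seen for 2 of the 6 member probes and for 34.9% of 22096 probes, so departures of this size were common on these arrays. Tnf, Il1b and Cxcl1 were not measured on every array and have no such value.

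**Figure D5:**
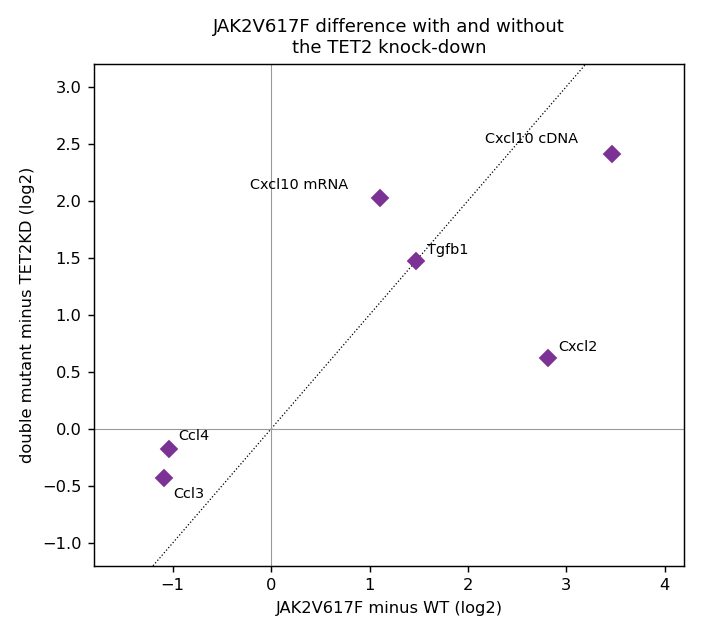
Log2 difference of double mutant over TET2KD (vertical) against that of JAK2V617F over WT (horizontal) for the 6 member probes measured on all arrays. On the dotted line the 2 differences are equal. Cxcl2 lies at 2.81 (horizontal) and 0.62 (vertical), and Tgfb1 at 1.47 on both axes.

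Receptors for these ligands, in a list chosen by function, included members that were higher and members that were lower than in WT. Of 16 compared probes 2 were at least 2-fold higher and 7 lower in double mutant cells (16.6% and 16.5% of all compared probes), 1 higher and 3 lower of 16 in JAK2V617F cells (16.4% and 16.1%), and 1 higher and 7 lower of 17 in TET2KD cells (17.3% and 17.2%). The list's median log2 difference was -0.55, -0.43 and -0.44 in the same order. Tgfbr3, the Tgfb co-receptor betaglycan, was 12.1-fold lower in double mutant and 6.76-fold lower in TET2KD cells. Tnfrsf1b, a Tnf receptor, was 3.19-fold lower in double mutant and at least 20.2-fold lower in TET2KD cells. Tnfrsf1a, the other Tnf receptor, was 2.66-fold lower in double mutant and 5.38-fold lower in TET2KD cells on 1 probe, while its other probe was 1.29-fold higher and 1.13-fold lower. Cxcr2, the receptor of Cxcl1 and Cxcl2, was at least 3.04-fold lower in double mutant, at least 3.09-fold lower in JAK2V617F and at least 2.34-fold lower in TET2KD cells. Il1r2, the interleukin-1 decoy receptor, was 2.48-fold lower in double mutant, 2.12-fold lower in JAK2V617F and 3.17-fold lower in TET2KD cells. Il1r1, the signalling receptor, was instead 4.05-fold higher in JAK2V617F cells. Il6st, which carries the Il6 signal into the cell, was 2.67-fold higher in double mutant and 3.06-fold lower in TET2KD cells. Of the Tgfb1 receptors, Tgfbr1 was 4.46-fold higher, 1.36-fold higher and 2.18-fold lower in double mutant cells on its 3 probes, and Tgfbr2 was 2.57-fold and 1.64-fold higher in TET2KD cells on its 2 probes.

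Genes that mature or release the cytokines were set against WT in the same way. In double mutant cells 3 of 14 compared probes were at least 2-fold higher and 1 lower (16.6% and 16.5% of all compared probes). JAK2V617F cells had 4 higher and 1 lower of 15 (16.4% and 16.1%), and TET2KD cells 3 and 1 of 14 (17.3% and 17.2%). The medians were 0.53, 0.16 and -0.12 (log2) in double mutant, JAK2V617F and TET2KD cells. Nlrp3, the sensor of the inflammasome that activates caspase-1, was 2.41-fold higher in double mutant, 2.53-fold higher in JAK2V617F and 3.35-fold higher in TET2KD cells on its probe measured on all arrays. Its other probe was at least 7.68-fold, at least 2.66-fold and at least 1.52-fold higher in the same order. Rhbdf2, which brings the Tnf sheddase Adam17 to the cell surface, was 2.48-fold higher in double mutant, 5.01-fold higher in JAK2V617F and 2.15-fold lower in TET2KD cells. Ltbp3, which binds latent Tgfb, was 3.17-fold lower in double mutant and 5.70-fold lower in JAK2V617F cells on 1 probe and 1.01-fold and 1.21-fold lower on the other. Furin, a protease that cuts the Tgfb1 precursor, was 2.10-fold higher in TET2KD cells, and Itgav, a subunit of integrins that activate latent Tgfb1, was at least 4.31-fold higher there. Casp1 itself, named after its values were seen, had a scaled signal of 383 in double mutant, 383 in JAK2V617F, 206 in TET2KD and 403 in WT cells.

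Sensing and signalling genes upstream of NF-kB went both ways against WT. In double mutant cells 10 of 32 compared probes were at least 2-fold higher and 9 lower (16.6% and 16.5% of all compared probes). JAK2V617F cells had 7 and 6 of 32 (16.4% and 16.1%), and TET2KD cells 9 and 6 of 32 (17.3% and 17.2%). The medians of the list were -0.15, -0.06 and 0.01 (log2) in the same order. Mapkapk2, a kinase that stabilises Tnf and Il6 mRNA, was 8.13-fold higher in double mutant, 4.79-fold higher in JAK2V617F and 2.21-fold higher in TET2KD cells. Ripk1, the kinase below the Tnf receptor, was 3.75-fold higher in double mutant, 2.56-fold higher in JAK2V617F and 4.29-fold higher in TET2KD cells. Tirap, an adaptor of Toll-like receptors, was 2.24-fold higher in double mutant and 13.2-fold higher in TET2KD cells. Irak3, which restrains that pathway, was 3.44-fold higher in double mutant and 5.28-fold higher in TET2KD cells. Irak1, an interleukin-1 receptor kinase, was 4.11-fold lower in double mutant, 2.80-fold lower in JAK2V617F and 2.03-fold lower in TET2KD cells on 1 of its 3 probes, and the other probes differed from WT by at most 1.48-fold. Ly96, the partner of Tlr4 in endotoxin sensing, was 4.05-fold lower in double mutant and 2.28-fold lower in JAK2V617F cells, against 2.12-fold higher in TET2KD cells.

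Several genes of this list had probes that did not move together. Traf6, the ubiquitin ligase below the interleukin-1 receptor, was 4.34-fold lower in double mutant and at least 15.6-fold lower in JAK2V617F cells on 1 of 3 probes, and the other probes were 1.70-fold to 1.86-fold lower, with 1 of these values a bound. Map3k7, the kinase Tak1, was 3.65-fold higher in double mutant and 3.64-fold higher in JAK2V617F cells on 1 probe, and at least 3.39-fold and 2.44-fold lower on another. Irak2, a further kinase of the family, was at least 3.83-fold higher in double mutant and at least 8.19-fold higher in TET2KD cells on 1 probe, against 1.05-fold lower and 1.06-fold higher on the other. That other Irak2 probe was extremely bright, with a scaled signal of 52170 in double mutant, 57830 in TET2KD and 54730 in WT cells. Whether both Irak2 probes report the same transcript was not tested. Traf2, an adaptor of the Tnf receptors, was at least 18.3-fold and 1.42-fold higher in JAK2V617F cells on its 2 probes. In TET2KD cells Irak4 was 3.45-fold lower on 1 probe and 1.48-fold higher on the other, and Ikbkg, the regulatory subunit of the NF-kB activating kinase, was at least 2.76-fold and at least 2.70-fold lower.

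Of the feedback and mRNA decay genes 3 of 18 compared probes were higher and 3 lower in double mutant against WT cells. The shares of all compared probes were 16.6% and 16.5%. JAK2V617F cells had 2 higher and 3 lower (16.4% and 16.1%), and TET2KD cells 2 and 1 (17.3% and 17.2%). The medians were -0.02, -0.32 and -0.21 (log2) in the same order. Nfkbie, an inhibitor of NF-kB, was 2.53-fold higher in double mutant, 2.32-fold higher in JAK2V617F and 2.52-fold higher in TET2KD cells, and Nfkbiz, an NF-kB target, was 4.07-fold higher in double mutant cells. Rc3h1, which encodes the mRNA decay factor roquin, was 6.08-fold higher in double mutant, 6.33-fold higher in JAK2V617F and 4.53-fold higher in TET2KD cells on 1 probe, but not on the other, which was at -0.68, 0.0 and -0.53 (log2). Elavl1, an mRNA-stabilising protein, was 3.91-fold lower in double mutant and 4.66-fold lower in JAK2V617F cells on 1 of 2 probes. Cyld, a deubiquitinase that restrains NF-kB, was 7.21-fold lower in JAK2V617F cells on 1 probe and at least 2.14-fold lower in double mutant cells on the other. Dusp1, a phosphatase that ends p38 signalling, was 2.16-fold lower in double mutant and 2.04-fold lower in JAK2V617F cells, and Socs3, the brake on Stat3 signalling, was 3.87-fold lower in TET2KD cells. Tnfaip3, a feedback gene of NF-kB named after its values were seen, was under 2-fold in each, with 815 in double mutant, 768 in JAK2V617F, 696 in TET2KD and 460 in WT cells.

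Markers of other cells also differed between the same arrays, and their part in the differences above was not tested. Of the genes of the 2 positive gates, Kit had a scaled signal of 523 in double mutant, 771 in JAK2V617F, 1400 in TET2KD and 1823 in WT cells, while Ly6a, the gene of Sca-1, had 662 in double mutant, 1012 in JAK2V617F, 1062 in TET2KD and 438 in WT cells. Summed LSK markers were 6729 in double mutant, 8588 in JAK2V617F, 9858 in TET2KD and 12520 in WT cells. Summed neutrophil markers were 6835 in double mutant, 2263 in JAK2V617F, 9537 in TET2KD and 6631 in WT cells. The S100a9 probe gave 3233, 1277, 5255 and 3854 of these sums, and 10, 7, 10 and 10 of 11 probes were measured. Monocyte and macrophage markers summed to 36050 in double mutant, 36100 in JAK2V617F, 43350 in TET2KD and 38280 in WT cells, most of it from 1 Itgam probe, with 13, 14, 12 and 12 of 18 probes measured. Erythroid markers differed more, with sums of 1100 in double mutant, 104.5 in JAK2V617F, 2340 in TET2KD and 157.9 in WT cells, and 5, 5, 4 and 2 of 7 probes measured. B and plasma cell markers summed to 686.8 in double mutant, 306.1 in JAK2V617F, 971.2 in TET2KD and 1909 in WT cells, where 1651 came from 1 of 2 Cd79a probes, with 7, 5, 6 and 3 of 9 probes measured. Endothelial and stromal markers summed to 443.2 in double mutant, 342.4 in JAK2V617F, 781.9 in TET2KD and 204.2 in WT cells. T and NK cell markers summed to 4869 in double mutant, 4521 in JAK2V617F, 3206 in TET2KD and 4909 in WT cells. Of these sums 1 Nkg7 probe gave 2665, 2540, 1504 and 3029, and 9, 9, 8 and 7 of 15 probes were measured. Megakaryocyte markers summed to 780.9 in double mutant, 914.3 in JAK2V617F, 1260 in TET2KD and 767.5 in WT cells. In the same order 1 Gp1bb probe gave 581.6, 557.7, 620.7 and 590.2 of these sums. Dendritic cell markers summed to 3341, 3382, 4454 and 3939, of which 1 Siglech probe gave 3285, 3344, 4313 and 3885. Mast cell and basophil markers summed to 118.3, 72.55, 107.9 and 151.9 in double mutant, JAK2V617F, TET2KD and WT cells.

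Some single markers of other lineages were measured on all arrays and some on none. C1qb and Csf1r of macrophages, Cd3e, Cd4 and Lck of T cells, and S100a8, S100a9, Ngp, Camp and Lcn2 of neutrophils were measured on all 4 arrays. Mrc1 and C1qc of macrophages, Mmp9 of neutrophils, Cd3d, Cd3g and Cd8a of T cells, and Ms4a1 of B cells were not well above background on any array. Cd14, the endotoxin co-receptor of monocytes, was at least 2.38-fold higher in double mutant, at least 2.85-fold higher in JAK2V617F and at least 7.57-fold higher in TET2KD than in WT cells. The monocyte and macrophage markers as a list went both ways against WT. In double mutant cells 4 of 14 compared probes were at least 2-fold higher and 1 lower (16.6% and 16.5% of all compared probes). JAK2V617F cells had 1 and 2 of 15 (16.4% and 16.1%), and TET2KD cells 3 and 2 of 13 (17.3% and 17.2%). The same shares apply to the lists that follow, with higher and lower counts in double mutant, JAK2V617F and TET2KD cells in turn. Neutrophil markers had 4 and 0, 1 and 5, and 6 and 0, of 10 compared probes each. LSK markers had 0 and 5, 1 and 7, and 1 and 1, of 10 each. Erythroid markers had 3 and 0 of 5, 0 and 1 of 5, and 4 and 0 of 4. B and plasma cell markers had 4 and 2 of 7, 1 and 3 of 5, and 4 and 2 of 6.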

How the data were processed

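Total RNA of sorted LSK cells was amplified with a NuGEN whole-transcriptome kit and labelled with Cy3 as cDNA, per the labels' protocols, and hybridised to 4 one-colour Agilent arrays, 1 per genotype. The authors deposited scanner intensity values from Agilent Feature Extraction 10.7.3.1, per the file headers, with background subtracted in the processed signal. They also deposited a log2 value table: over 55249 single-spot probes it equals log2 of the processed signal minus each array's 75th percentile (0 probes off by more than 0.001), with column medians of -2.6 (double mutant), -2.6 (JAK2V617F), -2.63 (TET2KD) and -2.64 (WT).

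The same scaling was computed here over 59305 non-control spots per array (Python 3.11.15, pandas 2.3.3, numpy 2.4.6), leaving out 162 to 199 outlier spots per array and averaging log2 values of repeated spots. A probe was compared where at least 1 array of the pair measured it, and 2-fold was the call. The SD of repeated spots averaged 0.1848 (double mutant), 0.178 (JAK2V617F), 0.1677 (TET2KD) and 0.169 (WT) in log2 units. A single-spot probe takes the SD of repeated probes of like signal. The number of arrays, not the spots, limits precision. The steps were tested on simulated data.

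Alternatives were normexp background correction (limma 3.58.1, R 4.3.3, offset 50), quantile and median scaling, the deposited log2 table, other filters on dim probes and a 3-fold mark. Taking a probe as measured with any spot above background was chosen after seeing the data. The members and lists were chosen with earlier results of these data known. From each list, genes were named by rule: per comparison, up to 3 probes each way with the largest difference past 2-fold on 2 measured arrays, and 1 bound each way. A gene so named may also be given in the other comparisons. Probe coordinates are those of the array files (mm9), and no gene annotation of that build was used, so exons and UTRs are not given.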

Additional observations from a re-analysis of the deposited data

Results flagged for a closer look

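Il1b differed in the direction of its genotype difference. The JAK2V617F difference (log2) was 1.16 with TET2KD (double mutant over TET2KD) and -1.54 without it (JAK2V617F over WT). Likewise the TET2KD difference was 1.35 with JAK2V617F and -1.35 without it. All 4 values are bounds, since Il1b was not well above background in JAK2V617F or TET2KD cells, and 1 array stands for each genotype, so that the difference was not tested. With the normexp background correction the same values were 0.3 and -0.47, and 0.35 and -0.42, with the same signs but under 2-fold.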

How the results depend on the processing

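Of the 25 differences of member probes past 2-fold, all 25 kept their direction under normexp, quantile scaling, median scaling, the deposited log2 table, no filter on dim probes and the any-spot rule, and 25 stayed past 2-fold under each of these except normexp, where 16 did. Limiting probes to those measured on both arrays left 15, all past 2-fold, because that setting reuses the same values. The deposited log2 table has the scaling of the main setting, and median scaling shifts each array by a constant. Without a filter or under the any-spot rule, a dim side keeps its own signal, so a bounded difference cannot shrink. These settings are therefore no independent check of direction. Only normexp and quantile scaling change signals probe by probe. Under normexp the count of lower probes was 0 in TET2KD and 0 in JAK2V617F over WT, and that of higher probes 0 in double mutant over JAK2V617F; Tnf in JAK2V617F over WT stood at 1.92 (log2), Il1b at -0.47 and the Cxcl10 mRNA probe at 0.58. The deposited log2 table gave 1 lower probe in double mutant over WT. With both arrays measured there were 1 higher and 0 lower in TET2KD over WT, 3 higher in double mutant over TET2KD and 1 higher in double mutant over JAK2V617F. Without a filter, 2 were lower in TET2KD and 1 in double mutant over WT. At 3-fold, 0 were lower in TET2KD and 0 in JAK2V617F over WT, 3 were higher in double mutant over TET2KD and 0 over JAK2V617F. Except where the construction sets it (a stricter mark, fewer or more probes compared), the cause was not tested. No paired analysis was possible because each genotype has 1 array, and no array could be left out. Signals near background limit Tnf, Il1a, Il1b, Il6 and Cxcl1, whose differences are bounds or could not be given on at least 1 array.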

Other observations

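Other cytokines showed a few large differences beside the 10 members. Of their compared probes 5 of 17 were at least 2-fold higher and 4 lower in double mutant than in WT cells. The shares of all compared probes were 16.6% and 16.5%. JAK2V617F cells had 3 and 3 of 15 (16.4% and 16.1%), and TET2KD cells 3 and 1 of 14 (17.3% and 17.2%). The medians were 0.22, 0.60 and -0.28 (log2) in the same order. Il10, an anti-inflammatory cytokine, had a scaled signal of 47.2 in double mutant, 62.4 in JAK2V617F, 139.9 in TET2KD and 4.66 in WT cells, which is at least 11.3-fold higher in TET2KD cells. Osm, an interleukin-6 family cytokine, was at least 17.6-fold higher in JAK2V617F cells, and Ifng at least 7.77-fold higher in double mutant cells. Ltb, a Tnf family member, was 2.29-fold higher in JAK2V617F and 3.44-fold higher in TET2KD cells. Il18, matured by caspase-1 like Il1b, was at least 4.09-fold lower in double mutant and at least 4.15-fold lower in JAK2V617F cells. Il16, a T cell attractant, was 2.59-fold lower in JAK2V617F and 3.62-fold lower in TET2KD cells. In double mutant cells Tnfsf13b, a B cell survival factor, was 3.93-fold higher and Tnfsf10, the death ligand Trail, 3.38-fold lower.

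Of the other chemokines 5 of 20 compared probes were higher and 1 lower in double mutant than in WT cells. The shares of all compared probes were 16.6% and 16.5%. JAK2V617F cells had 3 and 2 of 20 (16.4% and 16.1%), and TET2KD cells 5 and 2 of 20 (17.3% and 17.2%). The medians were -0.12, -0.15 and -0.03 (log2) in the same order. Pf4, the platelet chemokine of megakaryocytes, was 4.59-fold higher in JAK2V617F and 3.22-fold higher in TET2KD cells. Ccl9, Cxcl16 and Ccl5 were 2.85-fold, 2.52-fold and 2.44-fold higher in double mutant cells. In JAK2V617F cells Ccl24 was at least 4.35-fold higher, and Ccl6 and Cx3cl1 were 3.19-fold and 2.54-fold lower. In TET2KD cells Cxcl12, the chemokine that retains stem cells in the marrow, was at least 12.6-fold higher and Xcl1 2.95-fold lower, and Cxcl9 was at least 2.27-fold lower on 1 probe and 1.49-fold higher on the other. Ccl19 probes differed in sign, at least 2.33-fold higher on 1 and 2.24-fold lower on another in double mutant cells, and 2.90-fold higher on 1 and 1.82-fold lower on another in TET2KD cells.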
